A study of Mus musculus with 33 samples.

Results

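RNA-seq profiles of the frontal cortex of wild-type mice were compared between control sleep (CS) and recovery sleep (RS). The comparison took 13 of the 33 libraries of the series, 6 CS and 7 RS, and the 12752 of 21565 listed genes with a value of 1 or more in CPM (reads scaled to a common library total) in every library of either group. All 13 libraries came from adult male mice of the C57BL/6J strain with no engineered allele. CS mice slept ad libitum. RS mice were kept awake for 4 hr on a slowly moving treadmill, to which all mice had been accustomed beforehand, and were then left to sleep for 2 hr. Both groups had been moved to constant darkness and were sampled at the same circadian time, 6 hr into what had been the light phase. A group of 7 wild-type sleep-deprived (SD) libraries was set beside the pair. These came from mice kept awake for the full 6 hr before the same sampling time. RS and SD mice thus differed both in the length of deprivation and in recovery sleep, and these cannot be told apart here. The labels number the libraries of each group as separate samples and name no litter, cage or batch, so the p-values below measure the spread between these libraries.

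Mice sleep mostly during the light phase, and time awake builds up a pressure to sleep that is discharged in the slow-wave sleep that follows. In the cortex, waking activity switches on immediate early genes within minutes, and forced waking raises chaperones of the endoplasmic reticulum (ER) and genes under the glucocorticoid receptor. Sleep is widely held to be a time in which synapses are remodelled, and genes for receptors, adhesion proteins and scaffolds of the synapse are therefore often followed. A sample taken after a short recovery can hold messengers that have already returned to the rested level next to long-lived ones that have not.

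Libraries differed in ways that the sleep groups share. Total reads ran from 44395583 to 218548740 in CS and from 53595657 to 249046089 in RS, which makes 3 reads, the limit that a count of 0 allows, worth at most 0.068 CPM. These limits and the read counts cover counting error only. The CPM values were rescaled here so that the typical gene had the same level in every library (factors 0.716 to 0.911 in CS and 0.820 to 1.04 in RS), and all levels below are in these rescaled CPM. CS library 2 stood apart from the rest, with the lowest factor and the largest loading on a first principal component that held 67.4% of the variance. Each library's deviation from the mean of the 13 libraries was also related to the GC content of the genes' transcripts. Spearman's rho across 12281 genes was -0.48, -0.77 and -0.74 in CS libraries 1, 2 and 3, between -0.05 and 0.11 in CS libraries 4, 5 and 6, -0.11 and 0.06 in RS libraries 1 and 2, and 0.40 to 0.67 in the other 5 RS libraries. The same measure in SD libraries was 0.28 to 0.76. Base composition thus moved with the groups. The values with it corrected, or without CS library 2, stand beside many of the results below but not all. A result given without them did not necessarily keep its call. The part of base composition in the results was not tested. Markers of excitatory neurons (summed level 2490 to 2726 in CS and 2311 to 2909 in RS, with Neurod1 at 0 throughout) were present at like levels in both groups.

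**Figure D1:**
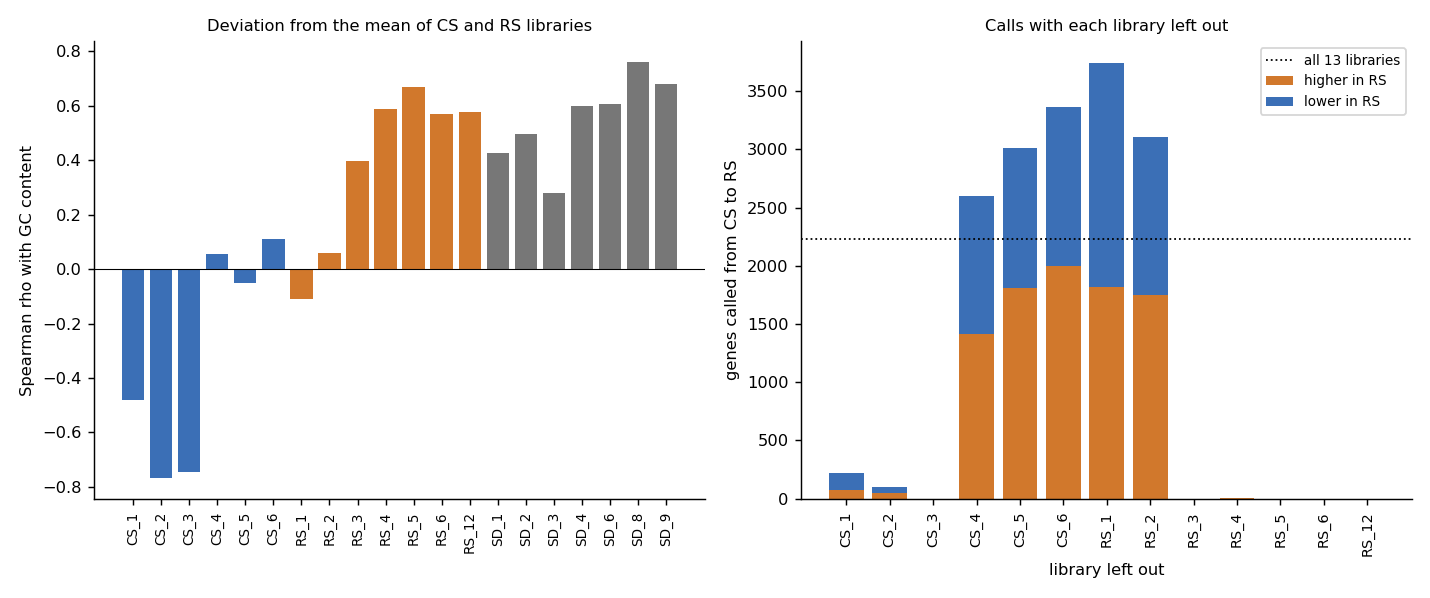
Left, Spearman's rho between each library's deviation from the mean and transcript GC content (vertical axis, no unit) for the CS, RS and SD libraries. Right, the number of genes called higher and lower in RS (stacked bars, from 0) in fits that leave out 1 library each. CS libraries 1 to 3 lie at -0.48 or below, and the count of calls runs from 0 to 3740 depending on the library left out.

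From CS to RS, 2232 of 12752 genes passed the test (17.5%). The test was a limma fit on log2(CPM + 0.5), and a call needed a Benjamini-Hochberg adjusted p no greater than 0.05 together with a log2 difference of 0.3 or more in either direction. Of these, 1184 were higher in RS (9.28%) and 1048 lower (8.22%). Counts of called members in each gene list below are to be read against these shares. The differences were small. The median fold of the called genes was 1.48 for rises and 1.37 for falls, and 87 genes rose and 3 fell by 2-fold or more. In 475 genes (3.72%) the ranges of CS and RS were fully separate (without overlap), with 217 higher and 258 lower in RS, and 394 of these genes were also called. The median log2 difference of all tested genes was 0.02. On the CPM as deposited that median was 0.20, and the calls then split into 2350 higher and 315 lower. Of the tested genes, 523 passed the filter on low values through RS alone, with 127 called higher and 0 lower, and 56 through CS alone, with 0 called higher and 7 lower. A gene that entered through the group in which it is high had to differ. Of the genes named below, Fosb, Junb, Gadd45g, Plin4, Hspa1b, Hspb1, Gpr6, Foxj1, H1fx, Hist1h4h, Fndc9, Slc25a34 and Stra6 entered through RS alone, and Ttr, Rpe65 and Olfr78 through CS alone.

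Calls crowded at the threshold, since the smallest adjusted p was 0.0329 and 5913 genes passed 0.05 before adjustment. Leaving out CS library 2 brought the calls to 98, 46 higher and 52 lower, with 4519 genes past 0.05 before adjustment. Without CS library 1, 223 genes were called, and 3 without RS library 4. No gene was called by limma without CS library 3 or without RS library 3, 5, 6 or 12, while 4544 to 5653 genes still passed 0.05 before adjustment in those fits. Leaving out CS library 5 or 6, or RS library 1 or 2, gave 3012, 3366, 3740 and 3108 calls. With CS libraries 1, 2 and 3 all removed, a fit chosen after the data had been seen, limma called 0 genes and 2538 passed 0.05 before adjustment. All 138 called genes named below kept their sign in each of the 13 fits that leave out 1 library. They had been called in the 13 libraries together, and each fit shares most of these, so a change of sign was unlikely. Of these 138, 111 were no longer called without CS library 2, and 70 of the 136 with a matched transcript were called after the correction for GC content and length described next.

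The direction of change followed transcript composition and gene size across the genome. Called genes that rose had a median transcript GC content of 56.5% and a median genomic span of 12.8 kb, and called genes that fell 44.1% and 124 kb, against 49.7% and 28.6 kb over all tested genes. With genes divided into 10 equal bins by GC, the bin lowest in GC had a median log2 difference of -0.33, with 0 genes called higher and 260 lower of 1229, and the bin highest in GC had 0.49, with 388 higher and 5 lower of 1228. By span, the shortest genes had a median of 0.37, with 254 higher and 1 lower, and the longest, from 157 kb to 2961 kb, had -0.33, with 4 higher and 420 lower. Across 12281 genes, which share the same libraries and are not independent, the log2 difference had a Spearman's rho of 0.71 with GC and -0.56 with span, and GC and span had -0.31 with each other. After each library's trend with GC and transcript length was removed, 629 genes were called (5.12%), 189 higher and 440 lower, and the longest bin still had a median of -0.20 against 0.09 in the shortest. Removing the trend with genomic span as well, a step added after seeing the data, left 189 genes (1.54%), 73 higher and 116 lower. From CS to SD, which shares the CS libraries, the lowest and highest GC bins had medians of -0.42 and 0.56.

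**Figure D2:**
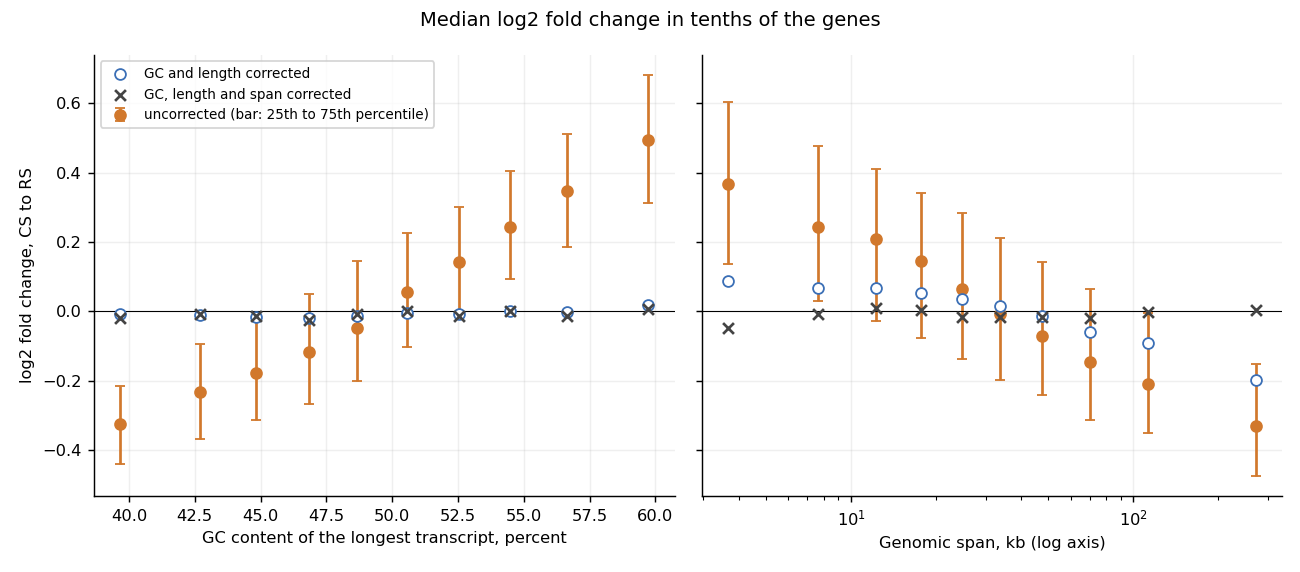
Median log2 difference from CS to RS (vertical axis) in 10 bins of genes ordered by transcript GC content (left) or by genomic span (right), with the 25th to 75th percentile of the uncorrected values, and after correction for GC and length (open) or for span as well (crosses). Uncorrected medians run from -0.33 to 0.49 over the GC bins and from 0.37 to -0.33 over the span bins, and corrected medians lie closer to 0 at both ends.

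Immediate early genes, which neurons switch on with activity, rose in 10 and fell in 1 of 25 tested genes after 2 hr in which sleep was allowed. The list's median log2 difference was 0.43 against 0.02 over all genes. Without CS library 2 the median was 0.32, and after the GC and length correction 0.30 with 4 members called, all higher (Fosb, Npas4, Fosl2 and Bdnf). Fosb, which encodes a component of the AP-1 transcription factor, had 1.15 to 3.5 CPM in CS (median 2.46) and 4.03 to 6.01 in RS (median 4.56). Npas4, an activity-dependent factor that shapes inhibitory synapses, had 4.2 to 7.32 CPM in CS (median 5.14) and 8.81 to 15.7 in RS (median 10.8). Both genes had every RS library above every CS library. Fosb had passed the filter on low values through RS alone, the group in which it is high. Fosb rose by 0.98 on the log2 scale (SE 0.18, adjusted p = 0.0329) and Npas4 by 0.97 (SE 0.15, adjusted p = 0.0329), and both stayed called without CS library 2 (0.83 and 1.01) and after the correction (0.67 each). The zinc-finger factor Egr3 was also higher without overlap, at 40.5 to 58.7 CPM in CS and 58.9 to 75.4 in RS (log2 difference 0.38, SE 0.09, adjusted p = 0.0335). Egr3 was not called without CS library 2 (0.39, adjusted p = 0.0503) or after the correction (0.30, adjusted p = 0.0644).

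The other called members reached less far apart. Fosl2, another AP-1 subunit, rose by 0.68 and was called after the correction (0.58). Gadd45g, a regulator of DNA demethylation and growth arrest, rose by 0.98, Nptx2, a secreted pentraxin that gathers AMPA receptors, by 0.70, and Btg2, an antiproliferative gene, by 0.49. These 3 were not called after the correction, at 0.36, 0.28 and 0.46. Jund rose by 1.34, with 1 of the 6 CS libraries, library 5, at 31.4 CPM, inside the RS range of 13.2 to 51.4, and its corrected value of 0.63 was not called. Jun (0.44) and Srf (0.44), the serum response factor, were called, but their corrected values were 0.13 and -0.16, neither of them called. Nr4a2, an orphan nuclear receptor, was the member that fell, from 21.1 to 50.6 CPM in CS (median 30.3) to 14.1 to 25.9 in RS (median 20), a log2 difference of -0.62 (-0.58 and not called after the correction).

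The most often used activity markers were not among the called genes. Fos, the founding AP-1 gene, had a median of 6.73 CPM in CS and 6.6 in RS, with CS libraries from 2.02 to 15.3. Egr1 differed by 0.11 (adjusted p = 0.573) and Homer1 by -0.24 (adjusted p = 0.209). Arc, whose product drives the removal of AMPA receptors, had 18.3 to 54.6 CPM in CS, 29.4 to 64.8 in RS and 58.8 to 94.9 in SD, with log2 differences of 0.31 from CS to RS (adjusted p = 0.315), 1.18 from CS to SD and -0.87 from SD to RS (adjusted p = 0.129). Junb spread from 0.85 to 35.2 CPM in CS alone and missed the threshold (log2 difference 1.51, adjusted p = 0.0613). Bdnf, the activity-dependent neurotrophin, differed by 0.05 (adjusted p = 0.744) but was called higher after the correction (0.31, adjusted p = 0.0445). The correction turned the direction of Fos (-0.05), Egr1 (-0.24), Arc (-0.13) and Homer1 (0.16), none of which was called.

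Feedback inhibitors of the MAP kinase pathway rose in 4 of 16 tested members and fell in none. Dusp4 and Dusp8 encode phosphatases that switch MAP kinases off, and Spry2 and Spry4 encode Sprouty proteins that damp growth factor receptors. Dusp4 went from 2.72 to 5.26 CPM in CS to 4.96 to 8.87 in RS and 7.06 to 10.9 in SD. Its log2 difference was 0.66 from CS to RS. Spry4 was without overlap between CS (2.92 to 6.26) and RS (6.54 to 8.49) and rose by 0.46. The list's median was 0.10, and after the correction 1 member, Spry2 (0.54), was called.

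**Figure D3:**
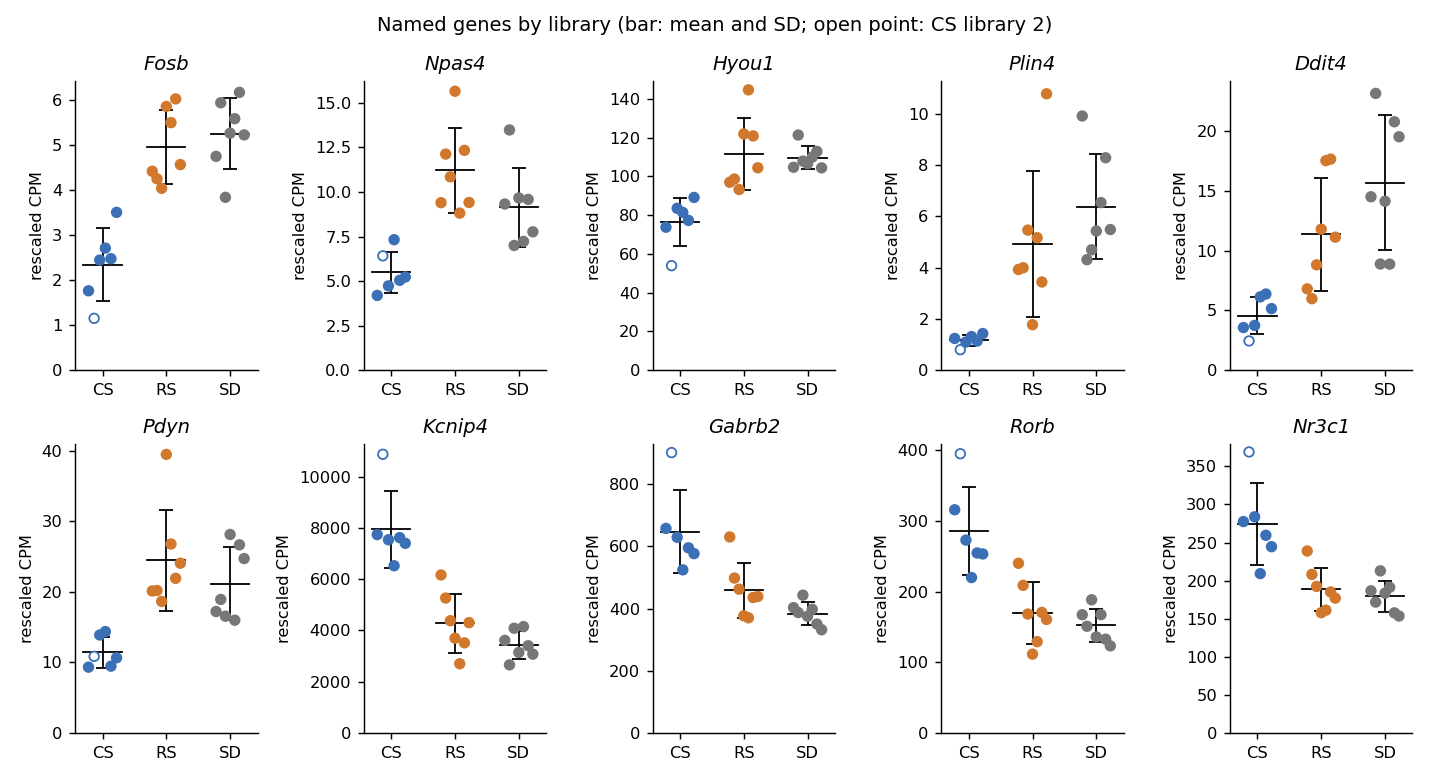
Level of 10 genes in each CS, RS and SD library (rescaled CPM, linear axes), with the mean and SD of each group and CS library 2 as an open point. Fosb, Npas4, Hyou1, Plin4 and Pdyn have all RS points above all CS points, Kcnip4 has them below, and Ddit4, Gabrb2, Rorb and Nr3c1 overlap between CS and RS.

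Chaperones of the ER, which fold secreted and membrane proteins and are raised by the unfolded protein response, were higher in 6 of 26 tested genes and lower in none. The promoters of this list shared a feature that the comparison did not use. The CCAAT box, searched as CCAAT on both strands, lay in the window from 250 bases before to 50 bases after the gene start in 21 of the 22 tested members that have a window (95.5%). It lay in a window of 42.7% of the 9609 tested genes with one, and in 37.4% of all 32851 windows searched, a share of windows and not genes. Also above 42.7% were clock activators (4 of 5 genes), GABA-A receptor subunits (6 of 8) and glucocorticoid receptor targets (10 of 16). Below it were immediate early genes (7 of 21), synaptic adhesion proteins (5 of 17) and cytosolic ribosomal proteins (17 of 59). Among genes called higher and lower in RS the shares were 42.7% and 43.2%. Below are the windows of the 4 called chaperone genes that have one, 5′ to 3′ on the gene's strand from RefSeq (GRCm38.p6), with each CCAAT box in capitals, as ATTGG where it lies on the other strand. They are Hspa5 at chr2:34771840-34772139 (plus strand), Pdia6 at chr12:17266339-17266638 (plus), Creld2 at chr15:88819396-88819695 (plus) and Calr at chr8:84846882-84847181 (minus).
Hspa5: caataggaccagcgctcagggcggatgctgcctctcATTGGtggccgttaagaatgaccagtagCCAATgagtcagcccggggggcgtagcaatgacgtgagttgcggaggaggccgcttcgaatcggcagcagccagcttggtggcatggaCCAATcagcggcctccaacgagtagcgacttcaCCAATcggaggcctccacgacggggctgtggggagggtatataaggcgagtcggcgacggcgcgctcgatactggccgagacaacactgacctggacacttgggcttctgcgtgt
Pdia6: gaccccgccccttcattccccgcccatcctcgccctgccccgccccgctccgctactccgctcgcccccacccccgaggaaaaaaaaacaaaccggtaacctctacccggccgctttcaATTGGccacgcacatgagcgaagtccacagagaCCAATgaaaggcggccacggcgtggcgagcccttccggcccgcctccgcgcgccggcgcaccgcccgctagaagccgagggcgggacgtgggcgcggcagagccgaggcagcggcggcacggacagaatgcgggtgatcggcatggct
Creld2: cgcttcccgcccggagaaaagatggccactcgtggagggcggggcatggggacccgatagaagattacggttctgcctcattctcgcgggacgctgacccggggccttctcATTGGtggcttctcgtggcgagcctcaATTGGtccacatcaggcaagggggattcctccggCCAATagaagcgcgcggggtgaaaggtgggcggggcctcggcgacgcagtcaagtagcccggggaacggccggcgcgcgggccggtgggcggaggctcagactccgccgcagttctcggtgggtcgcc
Calr: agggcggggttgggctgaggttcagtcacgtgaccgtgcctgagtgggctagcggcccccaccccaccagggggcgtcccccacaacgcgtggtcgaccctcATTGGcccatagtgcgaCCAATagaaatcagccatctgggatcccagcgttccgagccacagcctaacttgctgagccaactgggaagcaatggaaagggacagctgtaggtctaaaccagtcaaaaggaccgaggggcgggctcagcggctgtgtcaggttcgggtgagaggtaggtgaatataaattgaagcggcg
Hspa5 held 4 boxes in this window, Creld2 3, and Pdia6 and Calr 2 each. A match of letters is a description and not a site of binding. The other motifs searched were the E-box CACGTG, the GC box GGGCGG, the cAMP response element TGACGTCA and the MEF2 site. In the immediate early genes the cAMP response element lay in a window of 1 of 21 genes (4.76%), against 3.7% of the tested genes. The MEF2 site did so in 3 of 21, against 2.03%.

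Hspa5, the central ER chaperone also called BiP, had 117 to 172 CPM in CS (median 137) and 166 to 428 in RS (median 184). Its groups overlapped in a narrow range, and the log2 difference was 0.69 (SE 0.21, adjusted p = 0.0411). Hyou1, a chaperone induced by low oxygen, had 54 to 89.2 CPM in CS (median 79.4) and 93.2 to 145 in RS (median 104), without overlap (0.54, SE 0.13, adjusted p = 0.0333). Pdia6, a disulphide isomerase, was also without overlap, at 56.7 to 66.9 CPM in CS and 72.9 to 116 in RS (0.43). Creld2 (0.53) went from 4.9 to 6.51 CPM to 6.71 to 13.9, again without overlap. The secreted factor Manf (0.50) and the calcium-binding chaperone Calr (0.44) overlapped between groups. After the correction Hspa5 (0.81), Hyou1 (0.44) and Pdia6 (0.42) were still called, and the list's median was 0.17 against 0.24 before. SD stood near RS in these genes, with Hspa5 at 178 to 288 CPM and Hyou1 at 104 to 121. Without CS library 2 the list's median was 0.23, with 0 members called by limma.

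Heat shock proteins of the cytosol were higher in 4 of 23 tested genes, with a list median of 0.06. Hspb8, a small heat shock protein that works in autophagy, went from 2.83 to 6.4 CPM in CS to 5.63 to 12.7 in RS (0.82) and was called after the correction as well (0.61). Hspb1 was without overlap, at 0.618 to 1.4 CPM in CS and 1.65 to 6.42 in RS (0.96), but its corrected value was 0.23. Hspa1a (0.91) and Hspa1b (1.67), the inducible Hsp70 genes, are near-identical copies. Since the authors counted uniquely mapped reads, reads that fit both copies were not counted, and the values of both genes are uncertain. Neither was called after the correction. Of the cold-inducible RNA-binding proteins, Rbm3 fell by 0.46 on the log2 scale, from 52 to 75.5 CPM (median 60.8) to 34 to 62.4 (median 41.7), and Cirbp differed by 0.43 the other way (adjusted p = 0.0901).

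Targets of the glucocorticoid receptor rose in 9 and fell in 1 of 18 tested genes, with a median of 0.38. Plin4, which coats lipid droplets, had 0.8 to 1.43 CPM in CS (median 1.19) and 1.78 to 10.8 in RS (median 3.99), the largest rise among called genes without overlap (log2 difference 1.57, SE 0.27, adjusted p = 0.0329). RS library 12 was the highest, well above the other RS libraries, and the gene had passed the filter on low values through RS alone. Ddit4, a stress-induced brake on mTOR signalling, had 2.45 to 6.38 CPM in CS (median 4.45), 5.99 to 17.7 in RS (median 11.1) and 8.87 to 23.2 in SD (median 14.5). Its log2 difference from CS to RS was 1.19 (SE 0.27, adjusted p = 0.0329). Median levels of Plin4 and Ddit4 in RS lay between those of CS and SD. The RS and SD ranges of each gene overlapped, and RS minus SD was not called for either (-0.44 and -0.46, adjusted p = 0.986 for both).

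Fkbp5, a co-chaperone that restrains the receptor, had 20.2 to 27 CPM in CS, 26.4 to 44.2 in RS and 34.5 to 43.9 in SD (0.48 from CS to RS). Tsc22d3, which encodes the anti-inflammatory protein GILZ, rose by 0.34. The metallothioneins Mt1 and Mt2, which bind zinc, rose by 0.94 and 0.97, the cell cycle inhibitor Cdkn1a by 0.78, the NF-kappaB inhibitor Nfkbia by 0.57 and the kinase gene Map3k6 by 0.50. Nr3c1, which encodes the receptor itself, was the member that fell, from 209 to 369 CPM (median 269) to 158 to 239 (median 185), a log2 difference of -0.53. Sgk1, a classical target, differed by 0.01. After the correction Plin4 (1.31), Ddit4 (0.75), Mt1 (0.62) and Tsc22d3 (0.37) were called higher. Without CS library 2 the list's median was 0.44 and Plin4 alone of the 10 was called.

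**Figure D4:**
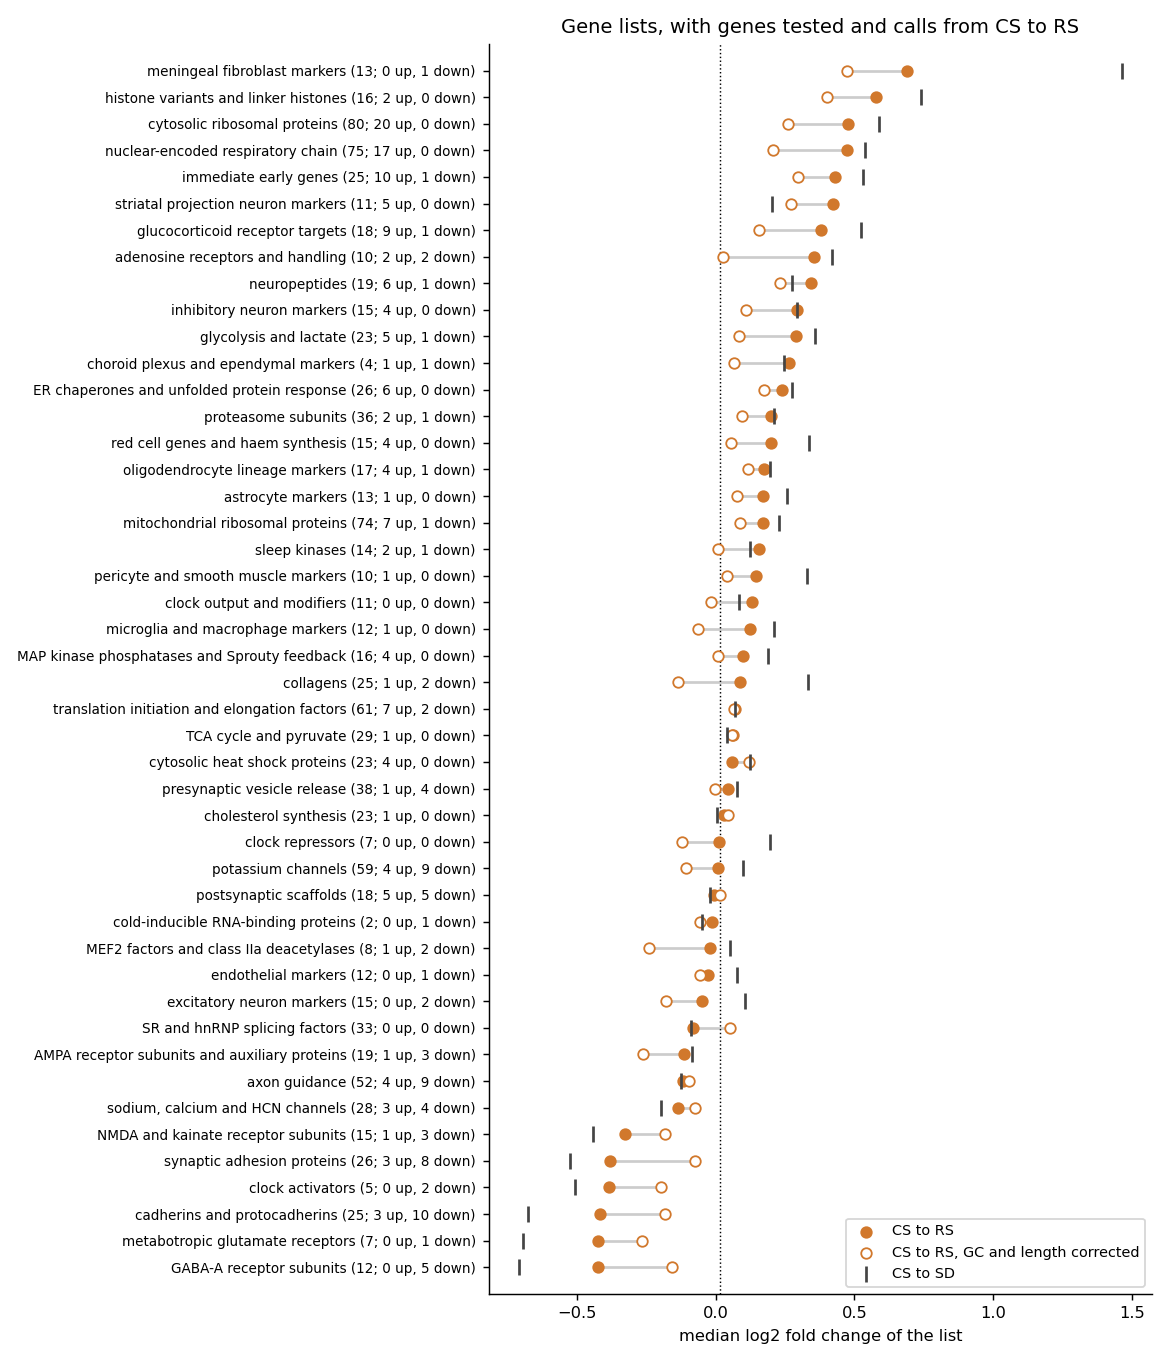
Median log2 difference of the tested members of each gene list (horizontal axis) from CS to RS, before (filled) and after (open) correction for GC content and length, with the CS to SD median as a tick. The dotted line marks the median of all 12752 tested genes at 0.02. Glucocorticoid receptor targets (0.38) and immediate early genes (0.43) lie to the right of it and GABA-A receptor subunits (-0.43) and cadherins (-0.41) to the left.

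Core clock genes set the daily cycle by a loop in which the activators Clock and Arntl drive their own repressors Per and Cry. At a fixed time of day, 0 of 7 repressors and 0 of 11 output genes were called from CS to RS by limma. Per1 had 13.1 to 33.8 CPM in CS, 24 to 36 in RS and 34 to 45.8 in SD, and Per2 had 17.4 to 27.1, 25.7 to 33.5 and 30.1 to 38.1. Medians were higher in SD than in RS for both, and RS minus SD was -0.34 (adjusted p = 0.312) for Per1 and -0.30 (adjusted p = 0.249) for Per2, neither of them called. Cry1 (-0.01), the nuclear receptor Nr1d1 (-0.02) and the output factor Dbp (0.09) had differences close to 0. Corrected values were negative for Per1 (-0.15) and Dbp (-0.46), and neither was called. Of 5 activators, the retinoid-related orphan receptors Rora (-0.51) and Rorb (-0.76) fell. Rorb, also a marker of layer 4 neurons, went from 220 to 395 CPM in CS (median 264) to 111 to 240 in RS (median 168) and was still called after the correction (-0.42). Clock itself missed the threshold (-0.38, adjusted p = 0.051), and its corrected value was -0.02.

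Subunits of the GABA-A receptor, the chloride channel of fast inhibition, fell in 5 of 12 tested genes and rose in none, with a median of -0.43. Gabrb2 had 525 to 902 CPM in CS (median 613) and 370 to 631 in RS (median 439), with overlap between the groups. Its log2 difference was -0.50 (SE 0.14, adjusted p = 0.0388) and -0.40 without CS library 2, the highest library, when it was not called. Gabrb1 fell by 0.51 on the log2 scale, and CS library 2 was far above the other CS libraries in it as well, at 1102 CPM. Without CS library 2 the list's median was -0.35, with 0 members called by limma. After the correction 2 members were called, Gabrb2 among them (-0.33), and with span corrected too the list's median was 0.02 with 0 called by limma. Of the genes for GABA synthesis and storage among the inhibitory neuron markers, Gad1 and Slc32a1 were called and Gad2 was not. Gad1, a synthetic enzyme, went without overlap from 157 to 239 CPM (median 213) to 241 to 324 (median 253), a log2 difference of 0.36, and Slc32a1, which loads GABA into vesicles, rose by 1.11 from a median of 17.2 CPM to 36.7. Both were called after the correction, at 0.42 and 0.57, and neither without CS library 2. Gad2, the other synthetic enzyme, had 126 to 313 CPM in CS and 166 to 423 in RS (0.34, adjusted p = 0.278).

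Ionotropic glutamate receptor genes fell in 6 and rose in 2 of 34 tested, against 8.22% and 9.28% of all tested genes. The AMPA receptor subunit Gria4 fell by 0.68 and the auxiliary subunits Cacng3 and Shisa6 by 0.45 and 0.56 on the log2 scale. Cacng3 had 111 to 150 CPM in CS (median 128) and 73 to 121 in RS (median 91), and its corrected value was larger, at -0.72, with SD at 68.8 to 111. Cnih2, which slows the closing of AMPA receptors, rose without overlap from 13.1 to 40.7 CPM to 45.7 to 76.5 (0.87), but the corrected value was 0.23 (adjusted p = 0.175). Among NMDA receptor genes the modulatory subunits Grin2a (-0.55) and Grin2b (-0.34) fell and the obligatory subunit Grin1 rose (0.30). The direction of Grin1 depended on the correction, which gave -0.13. The kainate receptor gene Grik1 fell by 0.50. After the correction limma called 0 of the 15 tested NMDA and kainate receptor genes (median -0.18, against -0.33 before). Of the 19 AMPA receptor genes it then called 0 higher and 3 lower (median -0.26, against -0.12 before). Without CS library 2 limma called 0 in either list. Grm8, a presynaptic metabotropic receptor, was the 1 of 7 in its class that was called, from 408 to 596 CPM in CS (median 413) to 194 to 407 in RS (median 294), without overlap.

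Adhesion proteins of the synapse fell in 8 and rose in 3 of 26 tested genes (median -0.38). Cadherins and protocadherins fell in 10 and rose in 3 of 25 (median -0.41). After the correction the adhesion median was -0.08, with 1 called higher and 2 lower, and the cadherin median -0.18, with 1 higher and 3 lower. With span corrected too the medians were -0.01 and 0.02. Without CS library 2 they were -0.25 and -0.28, and limma called 0 adhesion genes and 1 cadherin gene, which was lower. Ptprd, a receptor phosphatase that organises synapses, spans 2271 kb and had 6434 to 12475 CPM in CS (median 7919) and 2992 to 7887 in RS (median 4577). The log2 difference was -0.86 (SE 0.22, adjusted p = 0.0346). It was -0.74 without CS library 2, the highest, and -0.57 after the correction, when it was still called. The neurexins, presynaptic partners of neuroligins, moved apart from each other. Nrxn3 fell (-0.49) and Nrxn2 rose (0.86), and Nrxn2 went from 51.5 to 150 CPM to 131 to 246. Quantile normalization turned the value of Nrxn3 to 0.15. Il1rapl2 fell by 0.94 and Nlgn2, the neuroligin of inhibitory synapses, rose by 0.56. Among cadherins, Cdh12 fell from 426 to 865 CPM (median 606) to 198 to 521 (median 301), a log2 difference of -1.02 and among the 3 falls of 2-fold or more. Cdh2, N-cadherin, fell by 0.50 without overlap. Pcdh8, an activity-induced protocadherin also called arcadlin, rose by 1.15 from a median of 6.68 CPM to 15, with SD at a median of 15.7.

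The 10 genes with the highest mean level in CS were all called lower in RS. Their median genomic span was 1331 kb and the shortest spanned 877 kb. The ranking used the CS values of this comparison, which favours falls, and the part of that choice was not tested. Kcnip4, a modulator of Kv4 potassium channels, had 6522 to 10870 CPM in CS (median 7577) and 2698 to 6162 in RS (median 4301), without overlap (-0.92, SE 0.19, adjusted p = 0.0329). It was -0.82 without CS library 2, -0.66 after the correction and -0.19 (adjusted p = 0.141) with span corrected too. Dlg2, the scaffold PSD-93, was another of them, and fell by 0.51, although quantile normalization gave 0.07 and the span correction 0.10.

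Scaffolds of the postsynaptic density went both ways, 5 higher and 5 lower of 18 tested. Shank3 (0.59) and Dlg4, which encodes PSD-95 (0.41), rose, and Magi1 (-0.52), Magi2 (-0.59) and Dlgap1 (-0.54) fell. Magi1 was without overlap, at 354 to 460 CPM in CS (median 423) and 251 to 336 in RS (median 282), stayed called without CS library 2 (-0.52), and had a corrected value of -0.45. Of 38 presynaptic genes 1 rose and 4 fell, where 9.28% of all tested genes rose and 8.22% fell. Rims1, which tethers vesicles at the active zone, fell by 0.63, and the priming factor Unc13b by 0.41 without overlap, from 145 to 173 CPM to 106 to 141. The vesicle protein Sv2a rose by 0.53. Potassium channel genes rose in 4 and fell in 9 of 59, to be read against the same shares. Kcnma1, the large-conductance calcium-activated channel, fell without overlap from 1426 to 1847 CPM (median 1677) to 925 to 1414 (median 1087). Kcnc2 (-0.64), a channel of fast-spiking neurons, and Kcnh5 (-0.62) fell. After the correction 1 was called higher and 6 lower. Guidance molecules of axons rose in 4 and fell in 9 of 52, with Efna5, an ephrin, the largest fall at -0.86, from 206 to 330 CPM (median 222) to 99.4 to 196 (median 128).

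Peptide genes rose in 6 and fell in 1 of 19 tested, with a median of 0.34. Pdyn, the precursor of dynorphin, had 9.32 to 14.4 CPM in CS (median 10.7), 18.6 to 39.5 in RS (median 21.9) and 16 to 28.1 in SD (median 18.9). The rise from CS to RS was 1.04 on the log2 scale (SE 0.16, adjusted p = 0.0329), without overlap, 1.03 without CS library 2 and 0.91 after the correction, and it was called in each case. Tac1, the substance P precursor, went from a median of 30.8 CPM to 42.7 (0.64), Vgf, a secreted activity-induced peptide, from 45.7 to 101 (1.59), and Cartpt from 3.04 to 6.77 (1.16). Crh (0.49) and Pnoc (0.62) rose from medians of 2.61 and 1.79 CPM. Nxph1, a neurexin ligand, was the member that fell (-0.58).

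Several of these peptides are abundant in striatal projection neurons, whose markers rose in 5 of 11 tested and fell in none. After the correction 2 of the 11 were called, higher (list median 0.27, against 0.42 before). With span corrected too, or without CS library 2, limma called 0, at medians of 0.30 and 0.51. Adora2a, an adenosine receptor, went from 6.84 to 22.4 CPM (median 19.4) to 19.9 to 48.3 (median 29.9), a log2 difference of 1.09. Ppp1r1b, encoding DARPP-32, rose by 0.80, Gpr6 by 1.29 and Isl1 by 0.87, from 1.42 to 3.01 CPM to 3.02 to 7.94. RS library 4 was the highest in Isl1, Tac1, Cartpt and Pdyn. The summed level of the 11 markers in the table was 1037 to 2002 CPM in CS (median 1874) and 1321 to 2148 in RS (median 1815), so the ranges overlapped. Tac1 and Pdyn are also expressed in cortical interneurons, and the part of dissection in these values was not tested. In bulk tissue, a change in the number of cells and a change in RNA per cell cannot be told apart.

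Calls among markers of other cell types are to be read against 9.28% higher and 8.22% lower over all tested genes. Inhibitory neuron markers rose in 4 of 15 tested, Gad1, Slc32a1 and Dlx5 (0.51) among them, and their summed level was 1371 to 1898 CPM in CS and 1441 to 1952 in RS. Excitatory neuron markers fell in 2 of 15, Rorb among them. Oligodendrocyte lineage markers rose in 4 and fell in 1 of 17, with Olig1 up by 1.25, Olig2 up by 0.63 and Opalin down by 0.32. Astrocyte markers rose in 1 of 13, Aldh1l1 (0.31), with sums of 4714 to 6506 CPM in CS and 4595 to 5387 in RS. The endothelial transporter Slco1a4 fell by 0.51. Microglial markers rose in 1 of 12 and pericyte markers in 1 of 10. Meningeal fibroblast markers had a median of 0.69 with 0 higher and 1 lower of 13, Fap (-0.75). Their summed levels were 146 to 667 CPM in CS, 163 to 865 in RS and 613 to 1086 in SD, with Igf2 at 0 throughout. After the correction limma called 2 inhibitory neuron markers higher and 3 excitatory neuron markers lower. It called 0 of the oligodendrocyte, astrocyte, microglial, endothelial, pericyte and meningeal fibroblast markers. Without CS library 2 limma called 0 in each of these lists.

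Markers of the choroid plexus and of red cells also differed between libraries. Ttr, the transthyretin of the choroid plexus, had 7.35 to 170 CPM in CS and 0.122 to 11.1 in RS and was called lower (log2 difference -2.99). Of the 4 choroid plexus and ependymal markers tested 1 fell and 1 rose, with a median of 0.27. The member that rose was Foxj1, a factor of ciliated ependymal cells, from a median of 1.57 CPM to 2.82 (0.74), which was not called after the correction (0.22). CS library 1 was far above the others in Ttr, and the sum of choroid plexus markers was 209 CPM there against 17.5 to 27.5 in RS. Red cell genes rose in 4 and fell in 0 of 15, and their summed level did not overlap, at 287 to 342 CPM in CS and 343 to 388 in RS, with 321 to 522 in SD. The alpha-globin genes Hba-a1 (1.22) and Hba-a2 (1.15), near-identical copies whose shared reads were likewise not counted, had medians of 11.2 and 4.82 CPM in CS, 28.1 and 9.71 in RS and 57.2 and 20.9 in SD. Neither was called after the correction.

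Among genes of energy metabolism and protein synthesis, the lists for cytosolic ribosomes and the respiratory chain held the most calls. In glycolysis and lactate transport, 5 of 23 rose and 1 fell (median 0.29), and after the correction limma called 0 of 22. Slc2a1, the glucose transporter GLUT1 of the blood-brain barrier, went without overlap from 33.1 to 47.1 CPM (median 42.3) to 52.2 to 63.5 (median 56), with SD at 51.9 to 67.5. Its log2 difference was 0.47 (SE 0.09, adjusted p = 0.0329), 0.41 and called without CS library 2, and 0.24 after the correction (adjusted p = 0.0283, below the limit of 0.3). Pygb, brain glycogen phosphorylase, rose by 0.32 without overlap, and Slc16a7, the neuronal monocarboxylate transporter MCT2, fell by 0.56. Mdh2 was the 1 of 29 citric acid cycle genes called (0.48), a share below that of all genes, and 0 of 29 were called by limma after the correction. In cholesterol synthesis 1 of 23 was called, the master regulator Srebf2, which rose by 0.57 without overlap from 47.7 to 97.2 CPM to 98.4 to 141. Its corrected value was 0.22 and not called, while Pmvk, an enzyme of the mevalonate pathway, was then called lower (-0.51, against -0.02 before).

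Cytosolic ribosomal protein genes rose in 20 and fell in 0 of 80 tested (median 0.48), and nuclear-encoded respiratory chain genes in 17 and 0 of 75 (median 0.47). These are short genes, with median spans of 3.27 and 7.57 kb. After the correction 2 and 0 of 80 and 2 and 1 of the 74 with a transcript were called, with medians of 0.26 and 0.21. Rps16 went from 6.08 to 17.7 CPM (median 13.2) to 15.9 to 47.2 (median 25.7) and was called in both fits (1.12 and 0.91), as was Rpl10a (0.45 and 0.38). Among respiratory genes, Uqcrq of complex III (1.53) and Cox5b of complex IV (1.03) were called in both fits. Ribosomal protein genes have many processed copies in the genome, and reads shared with such copies were not counted, since only uniquely mapped reads were. Mitochondrial ribosomal proteins rose in 7 and fell in 1 of 74, translation factors in 7 and 2 of 61 with Eef2 up by 0.66, proteasome subunits in 2 and 1 of 36, and splicing factors of the SR and hnRNP families in 0 and 0 of 33 by limma. Shares of rises in the mitochondrial ribosome, proteasome and translation factor lists are to be read against 9.28% of all genes, and after the correction their calls were 1 higher and 2 lower, 0 higher and 1 lower, and 0 higher and 1 lower. Histone variants and linker histones rose in 2 of 16. Hist1h4h, a core histone gene, spread from 0.183 to 56.6 CPM in CS and from 11.1 to 315 in RS, with a log2 difference of 3.15 (adjusted p = 0.0467), the largest among called genes. H1fx, a linker histone, rose by 1.37 from a median of 0.745 CPM to 1.78. Neither was called after the correction or without CS library 2. Collagens rose in 1 and fell in 2 of 25.

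Genes linked to the regulation of sleep need changed in part. Mef2c, the transcription factor that the series is about, had 1085 to 2019 CPM in CS (median 1345), 647 to 1213 in RS (median 976) and 682 to 970 in SD (median 817). It fell by 0.63 on the log2 scale from CS to RS (SE 0.16, adjusted p = 0.035), with overlap between the groups, and its corrected value was -0.31 (adjusted p = 0.0526). Of the class IIa deacetylases, which bind MEF2 proteins, Hdac5 rose (0.95) and Hdac9 fell (-0.56), and both were called after the correction (0.54 and -0.33). Genes that handle adenosine, a signal of time awake, rose in 2 and fell in 2 of 10. Adk, adenosine kinase, fell from 155 to 207 CPM (median 175) to 108 to 158 (median 123), Nt5e, which makes adenosine outside the cell, rose by 0.33, and Ak5 fell by 0.40. The direction of Adk (-0.47) turned to 0.16 with span corrected. Of 14 kinases linked to sleep 2 rose and 1 fell, with Camk2b up by 0.33 and Camk4 down by 0.62 on the log2 scale.

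Among called genes without overlap, the largest rises after Plin4 and H1fx were Cotl1, Hba-a2, Fndc9, Rhot2, Pdyn, Slc25a34, Stra6, Crym, Fibcd1 and Kcna5. Cotl1, an actin-binding protein, went from 5.38 to 15.2 CPM (median 12) to 17.8 to 38.6 (median 22), a log2 difference of 1.20. Crym, a thyroid hormone binding protein, had 15.3 to 35 CPM in CS and 35.5 to 87.3 in RS (1.01). Rhot2 (1.06) moves mitochondria along axons, Slc25a34 (1.03) is a mitochondrial carrier, and Stra6 (1.03) is the receptor for retinol binding protein. Kcna5, a potassium channel gene outside the channel list above, went from 2.43 to 5.38 CPM to 6.08 to 15.2 and was called after the correction (0.75). Fndc9 (1.12) and Fibcd1 (1.0) completed the list. Among the largest falls were Pparg, Rpe65, Kcnip4, Efna5, RP23-411B7.2, Astn2, Car10, Nav3, Olfr78, Zfp458 and RP24-100C12.5. Pparg, a nuclear receptor for fatty acids, went from 53.9 to 81.3 CPM (median 64.6) to 20.9 to 46 (median 34.7), with SD at 24.1 to 44.2, a log2 difference of -0.96 (SE 0.18, adjusted p = 0.0329). It was called without CS library 2 (-0.89) and after the correction (-1.02). Astn2, which controls surface removal of neuronal proteins, had 422 to 622 CPM in CS and 200 to 410 in RS (-0.83), and Car10, a secreted neurexin ligand, 701 to 890 and 326 to 643 (-0.82). Nav3 (-0.81), Rpe65 (-0.94), the olfactory receptor gene Olfr78 (-0.79) and the zinc-finger gene Zfp458 (-0.75) fell likewise. RP23-411B7.2 (-0.86) and RP24-100C12.5 (-0.74) are listed only by clone name.

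Corrections for composition and size left a smaller set. In all, 418 genes were called the same way before and after the GC and length correction, 162 higher and 256 lower, and 106 were called in all of the fits without correction, with it, and with span as well. Of these 106, 50 were also without overlap, 28 higher and 22 lower. The following were picked from the 50 after their values were seen. Notch1, the receptor of lateral signalling, went from a median of 21.6 CPM to 32.3 (0.77), Fgfr1, a fibroblast growth factor receptor, from 18.8 to 33.3 to 34.6 to 45.6 (0.66), and the kinase gene Prkcd from 2.27 to 4.68 to 4.97 to 9.49 (0.86). Cbs (0.70) and Prodh (0.58), enzymes of homocysteine and proline breakdown, rose as well. Adcy2, an adenylyl cyclase, fell from 492 to 641 CPM to 333 to 435 (-0.54). Fosb, Plin4, Pdyn, Crym, Gad1, Pparg and Astn2 also belong to the 50. Fosb and Plin4 had entered through RS alone, where they are high, so the filter favoured their difference.

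The genes that separated RS from CS were also set beside SD. CS to RS, CS to SD and SD to RS share libraries, so their values are given side by side only. The genes were chosen by CS to RS, which favours a like direction from CS to SD. Genes called higher in RS had median log2 differences of 0.57 from CS to RS, 0.63 from CS to SD and -0.05 from SD to RS, and genes called lower had -0.45, -0.53 and 0.09. Between SD and RS, 3 of 12921 tested genes were called (0.0232%), 683 passed 0.05 before adjustment, and DESeq2 on the recovered reads called 54. Alas2, which catalyses the first step of haem synthesis in red cell precursors, had 2.01 to 2.67 CPM in CS (median 2.22), 3.84 to 6.17 in SD (median 5.39) and 2.2 to 3.32 in RS (median 2.65). Its level in RS was below every SD library, with a log2 difference of -0.77 (SE 0.12, adjusted p = 0.0393). Kcnj2, an inward rectifier potassium channel, had 32.8 to 39.1 CPM in CS, 27.3 to 37.4 in SD and 38.4 to 49.6 in RS, and rose from SD to RS by 0.50 (SE 0.08) without overlap. Pth2r, a receptor of the parathyroid hormone family, had 3.73 to 9.9 CPM in CS, 2.08 to 2.91 in SD and 3.25 to 7.72 in RS (0.89 from SD to RS, SE 0.14), also without overlap. From CS to RS, Alas2 and Pth2r were not called (0.20 and -0.13) and Kcnj2 differed by 0.25, below the limit of 0.3. The count of 3 was 0 in fits without SD library 1, 2, 6, 8 or 9, or without RS library 2, 3, 6 or 12, and up to 9 without RS library 5.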

How the data were processed

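Total RNA of frontal cortex was sequenced as poly(A)-selected stranded libraries (TruSeq). Per the study's methods, the authors trimmed reads with Trimmomatic, aligned them with STAR to mm10, counted uniquely mapped reads per gene with HTSeq and deposited CPM values made with edgeR. The annotation release, and whether intronic reads were counted, are not given in the sources used here. The deposited CPM are whole multiples of 1 read: whole reads were recovered for 711645 of 711645 values (within 0.01 of a whole number).

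Levels are CPM divided by a median-ratio factor over 11570 genes. Genes that reached 1 CPM in every library of either group were tested with limma 3.58.1 (R 4.3.3) on log2(CPM + 0.5), two-sided, over the 13 libraries, with Benjamini-Hochberg adjustment over all genes tested, and called where the adjusted p was no greater than 0.05 and the log2 difference 0.3 or more in size. A difference is on the log2(CPM + 0.5) scale and understates the change of low genes. The SE is limma's moderated one. The GC and length correction removed, in each library, a spline trend (5 and 4 degrees of freedom) fitted across 12281 genes with a transcript in the GENCODE M21 annotation (GRCm38), matched by symbol (19256 directly and 239 by an older symbol of 21565, 2070 not found). On the recovered reads, edgeR 4.0.16 called 1623 genes (751 higher, 872 lower) and DESeq2 1.42.0 called 3420. The fits were tested on simulated data with known changes. Promoter windows are RefSeq's, and those on chromosome 18 were left out.

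The comparison, the gene lists and the tests were chosen with earlier results of these data known. Named genes are list members, the 12 largest rises and 12 largest falls among called genes without overlap, and the genes called from SD to RS. Other normalizations, pseudocounts, filters, fits and leaving out each library were tried. Libraries of other genotypes were not used, and results of some genes that these rules name are not reported here.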

Additional observations from a re-analysis of the deposited data

Results flagged for a closer look

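Dixon's test found a sample far from the rest of its group in 37 of 320 groups of values, where chance gives about 1 in 20, or 16. CS library 2 was the highest CS library in Clock (374.7 CPM), Gabrb1 (1102), Gabrb2 (902), Gria4 (1747), Grm8 (595.6), Ptprd (12480), Nrxn3 (6875), Il1rapl2 (522.3), Rims1 (2143), Kcnip4 (10870), Nxph1 (474), Camk4 (1177), Slc16a7 (273.2), Rpe65 (5.982), Nav3 (2970), Zfp458 (63.12), Dlg2 (6565), Magi2 (2466) and Cdh2 (451.6). It was the lowest in Spry4 (2.916) and Mdh2 (57.54). Among the other CS libraries, library 5 was the highest in Jund (31.39), Junb (35.24), Hspa1b (3.732) and Hist1h4h (56.6), library 1 in Ttr (170.5) and library 4 in Fndc9 (1.876).

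In RS, library 4 was the highest in Cnih2 (76.54 CPM), Kcna5 (15.24), Pdyn (39.48), Tac1 (75.52), Cartpt (20.91), Isl1 (7.944) and Fndc9 (6.65). Library 5 was the highest in Grin1 (369.7) and Rpl10a (69.97), and library 12 in Plin4 (10.78). The causes were not tested.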

How the results depend on the processing

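The count of 2232 genes called from CS to RS became 385 with no filter on low values, 4018 in a fit over all wild-type libraries, 3420 with DESeq2, 629 with GC content and length corrected, and 4279 with the replicate number as a block. Over fits that leave out 1 library it ran from 0 to 3740. Added after seeing the data, correcting span as well gave 189, and removing CS libraries 1, 2 and 3 gave 0. Correcting GC content and length with the replicate block, also added then, gave 1526. From SD to RS, 3 calls became 1 on deposited CPM, 0 with no filter, 0 at a CPM of at least 5, 100 with array weights, 0 with the replicate block, 7 with the GC correction, 0 with it and the block, 54 with DESeq2 and 18 with span, and ran from 0 to 9 without 1 library. The replicate numbers were not treated as pairs. The correlations of same-numbered libraries were 0.109, 0.666, 0.068, 0.414, 0.495 and 0.356, all of them positive, and 2 of 6 correlated best with their own number. Whether same-numbered libraries were processed together is not given, and these values cannot settle it.

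Some named genes changed sign. With GC and length corrected, Srf gave -0.16 and Grin1 -0.13, and with the block as well -0.17 and -0.12, with Dbp at -0.51. With span corrected, Jun gave -0.0517, Srf -0.18, Rora 0.0739, Gabrb1 0.0225, Grin1 -0.13, Grin2b 0.000368, Adk 0.16 and Dlg2 0.10. Quantile normalization gave 0.0327 for Grin2b, 0.15 for Nrxn3 and 0.0709 for Dlg2. The cause was not tested. Depth limits genes near 1 CPM most.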
